A study of Mus musculus with 15 samples.

Results

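A set of 10 mRNA that encode repressors of mRNA stability or translation were followed through the activation of mouse CD8+ T cells and through the removal of IL-2 from effector cells. They are Btg1, Btg2 and Tob1, Pdcd4, the ZFP36 family genes Zfp36, Zfp36l1 and Zfp36l2, Zc3h12a, and the Roquin genes Rc3h1 and Rc3h2. They were chosen by symbol with earlier results of these data known, so counts set beside the shares of all genes are descriptions. All 10 were present among the 11262 genes of the first table and the 11211 genes of the second. The values are FPKM, sequenced fragments scaled to transcript length and to the size of the library, so levels of different genes can be set side by side per length.

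All cells came from LCMV-P14 TCR transgenic mice, in which CD8+ T cells carry 1 receptor for the gp33-41 peptide of a viral glycoprotein. For the first table, each replicate was a pool from 3 mice that supplied every condition, and there were 3 such replicates. Naïve cells were taken directly from lymph nodes. TCR cells were activated for 24 h with peptide at 100 ng/ml in medium that held IL-2 (20 ng/ml) and IL-12 (2 ng/ml). TCR+PI3Kdi cells received the same together with 10 µM IC87114 (PI3Kdi), an inhibitor of PI3K p110δ, the lipid kinase that couples the antigen receptor to AKT in T cells. According to the methods the mice were females of 9 to 13 weeks, naïve cells were sorted as live TCRβ+ CD8+ cells, CD62L high and CD44 low, and activated cells as live CD8+ cells. The second table holds cytotoxic T lymphocytes (CTL) that were activated for 48 h and grown for 4 days in 20 ng/ml IL-2. On day 6 they were washed and kept for 24 h with IL-2 put back (CTL with IL-2) or without it (CTL without IL-2), in 3 replicates each. All groups share the transgenic receptor and no group lacked it.

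Resting lymphocytes hold down mRNA and protein synthesis, and these genes encode several of the brakes. BTG and TOB proteins join the CCR4-NOT deadenylase to poly(A)-binding protein and so shorten poly(A) tails. ZFP36 proteins bind AU-rich elements in 3′ UTRs and bring the same deadenylase to cytokine and immediate-early mRNA. Regnase-1, the product of Zc3h12a, cuts stem-loops in 3′ UTRs, and the Roquin proteins bind such stem-loops and recruit CCR4-NOT. PDCD4 blocks the helicase eIF4A and thereby cap-dependent translation, and is destroyed after phosphorylation by S6 kinase.

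Sequences at these loci are shown first, since the ZFP36 family is known to bind its own mRNA. The letters UAUUUAU, the core of the AU-rich element, were searched on the sense strand of the 3′ UTR of 1 GENCODE M21 transcript per gene (build GRCm38). They occurred in 6 of the 10 genes. Zfp36, Zfp36l1, Zfp36l2 and Rc3h2 each held 3 copies, Rc3h1 held 2 and Btg2 held 1, whereas Btg1, Tob1, Pdcd4 and Zc3h12a held 0. Long 3′ UTRs often hold the letters by length alone. Among genes with a 3′ UTR within 20% of the same length, 19.1% held a copy for the 774-base 3′ UTR of Zfp36, 38.5% for Zfp36l1 (1835 bases), 38.4% for Zfp36l2 (1822 bases), 43.2% for Btg2 (2199 bases), 78.8% for Rc3h1 (7181 bases) and 68.1% for Rc3h2 (5160 bases). The copy nearest to the stop codon is given for each gene within 25 bases of mRNA, with the 7 letters in capitals.
Btg2 (chr1:134077251-134077275, minus strand): augaagagcUAUUUAUacauguuuu
Zfp36 (chr7:28376968-28376992, minus strand): ugggcccuuUAUUUAUgacgacuuu
Zfp36l1 (chr12:80108424-80108448, minus strand): aucaaaacgUAUUUAUugccaaacu
Zfp36l2 (chr17:84184916-84184940, minus strand): uauuuaacuUAUUUAUuaucuugug
Rc3h1 (chr1:160970045-160970069, plus strand): uuuacucauUAUUUAUugagaugag
Rc3h2 (chr2:37374758-37374782, minus strand): cagcugcuuUAUUUAUcuuuuucau

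The 250 bases before the RefSeq start site (GRCm38.p6, written 5′ to 3′ on the strand of the gene) are printed for the 4 genes with the largest fall on activation. RefSeq held promoters for 9 of the 10 genes, and Zfp36l2 had no entry. Letters of binding motifs were searched on both strands from 250 bases before to 50 bases after each start. Capitals mark TGTTTAC (FOXO) in Btg1, TGACGTCA (CRE) in Btg2, TTCNNNGAA (STAT5) in Pdcd4 and Zfp36, and the CArG box in Zfp36. Among 32851 promoters of the same length, these were held by 3.65%, 1.79%, 8.3% and 1.63%. The hexamer GGGCGG (GC box), held by 35.7% of promoters, was not capitalised, and 1 copy in Zfp36 shares a base with the CArG box. TGANTCA (AP-1, 7.81% of promoters) occurred in Zfp36l1 and Rc3h1, and CACGTG (E-box, 7.15%) in none of the 9 genes. A match of letters is a description and does not show a binding site.
Btg1 (chr10:96616751-96617000, plus strand): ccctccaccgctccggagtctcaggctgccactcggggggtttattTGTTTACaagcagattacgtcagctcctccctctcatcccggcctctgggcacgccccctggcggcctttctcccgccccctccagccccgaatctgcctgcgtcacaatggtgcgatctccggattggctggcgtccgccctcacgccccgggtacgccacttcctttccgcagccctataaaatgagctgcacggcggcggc
Btg2 (chr1:134079156-134079405, minus strand): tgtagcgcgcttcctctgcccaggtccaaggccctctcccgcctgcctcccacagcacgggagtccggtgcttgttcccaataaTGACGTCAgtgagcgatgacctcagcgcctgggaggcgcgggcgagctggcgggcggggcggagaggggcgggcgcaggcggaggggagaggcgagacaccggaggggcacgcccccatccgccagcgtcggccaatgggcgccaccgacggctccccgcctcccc
Pdcd4, first start (chr19:53891981-53892230, plus strand): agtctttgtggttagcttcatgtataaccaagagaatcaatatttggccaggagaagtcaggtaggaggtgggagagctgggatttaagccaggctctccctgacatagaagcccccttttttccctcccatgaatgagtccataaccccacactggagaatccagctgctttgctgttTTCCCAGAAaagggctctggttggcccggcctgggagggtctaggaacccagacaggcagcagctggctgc
Pdcd4, second start (chr19:53903101-53903350, plus strand): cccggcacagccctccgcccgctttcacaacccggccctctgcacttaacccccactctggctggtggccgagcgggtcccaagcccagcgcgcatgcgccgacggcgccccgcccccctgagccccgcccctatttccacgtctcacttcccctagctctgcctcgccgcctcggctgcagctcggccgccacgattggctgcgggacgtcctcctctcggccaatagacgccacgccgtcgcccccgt
Zfp36 (chr7:28379229-28379478, minus strand): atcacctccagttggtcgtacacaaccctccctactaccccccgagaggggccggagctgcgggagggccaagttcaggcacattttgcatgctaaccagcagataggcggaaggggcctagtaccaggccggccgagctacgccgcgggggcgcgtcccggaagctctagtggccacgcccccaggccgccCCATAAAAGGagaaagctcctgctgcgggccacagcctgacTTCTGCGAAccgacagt

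The TTCNNNGAA of Pdcd4 lies 71 bases before the first start, and the second start has 3 GC boxes and none of the other motifs. In Zfp36 the CArG box begins 58 bases before the start and TTCNNNGAA 17 bases before it. The TGTTTAC of Btg1 begins 204 bases and the TGACGTCA of Btg2 166 bases upstream.

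Depth and purity bear on every value. The files state no read totals. A rough figure was read from 3 to 28 short, low genes per library, taking FPKM times exon length as a single read. Only products inside a window set beforehand were kept. That window confines the result, so depth was not measured. The figure was about 11200000 to 14500000 counted reads for the first table and about 8880000 to 13200000 for CTL libraries. If it holds, the shallowest value below, Tob1 in TCR replicate 3, rests on about 63 reads. Of 7 CD8 T cell markers, 6 were in each table. Their summed level was 3628 to 3922 FPKM in naïve, 708 to 866 in TCR and 938 to 1094 in TCR+PI3Kdi libraries, 1231 to 1298 in CTL with IL-2 and 2248 to 2468 in CTL without IL-2. Of 7 B cell markers, 5 were in the first table, with sums of 20.98 to 27.0 FPKM in naïve, 4.92 to 7.82 in TCR and 3.33 to 4.63 in TCR+PI3Kdi libraries, and in the CTL table only Cd79b was present (2.74 to 6.30 with IL-2, 10.8 to 20.6 without). The B cell marker Ms4a1 was low, at 0.51 FPKM in naïve cells. Of 10 myeloid and dendritic cell markers 3 were in the first table, at sums of 49.4 to 60.8 FPKM in naïve and 39.5 to 60.7 FPKM in TCR libraries, nearly all of it Cst3. Of these markers 4 were among the CTL genes, at sums of 106 to 128 FPKM with IL-2 and 113 to 119 FPKM without. Without IL-2, Cst3 (65.4 to 93.4 FPKM) and Itgam (0.29 to 4.09) were higher and Fcer1g was lower (47.0 to 9.48). Cd68 was at 7.69 FPKM with IL-2 and 8.78 without. Lyz2, Csf1r and Adgre1 were in neither table. The part of other cells in the results was not tested. FPKM are shares of a library, so fewer cells with an mRNA, less of it per cell, and a larger total of other mRNA per cell cannot be told apart.

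In naïve cells 6 of the 10 mRNA were abundant. Zfp36 was the highest at 208 ± 17.2 FPKM (mean ± SD, n = 3 throughout), above 97.8% of the genes in the table. Pdcd4 followed at 144 ± 4.18 FPKM, above 96.6%. Btg1 (117 ± 22.1), Zfp36l2 (115 ± 13.8) and Zfp36l1 (101 ± 17.1 FPKM) came next and their libraries overlapped in that order, and Btg2 stood at 88.1 ± 10.5 FPKM, overlapping Zfp36l1. The other 4 were near the middle of the table. Tob1 was at 12.8 ± 0.309 FPKM, Rc3h1 at 10.8 ± 2.01, Zc3h12a at 10.2 ± 1.34 and Rc3h2 at 8.15 ± 1.74 FPKM, and neighbours in this order overlapped.

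**Figure D1:**
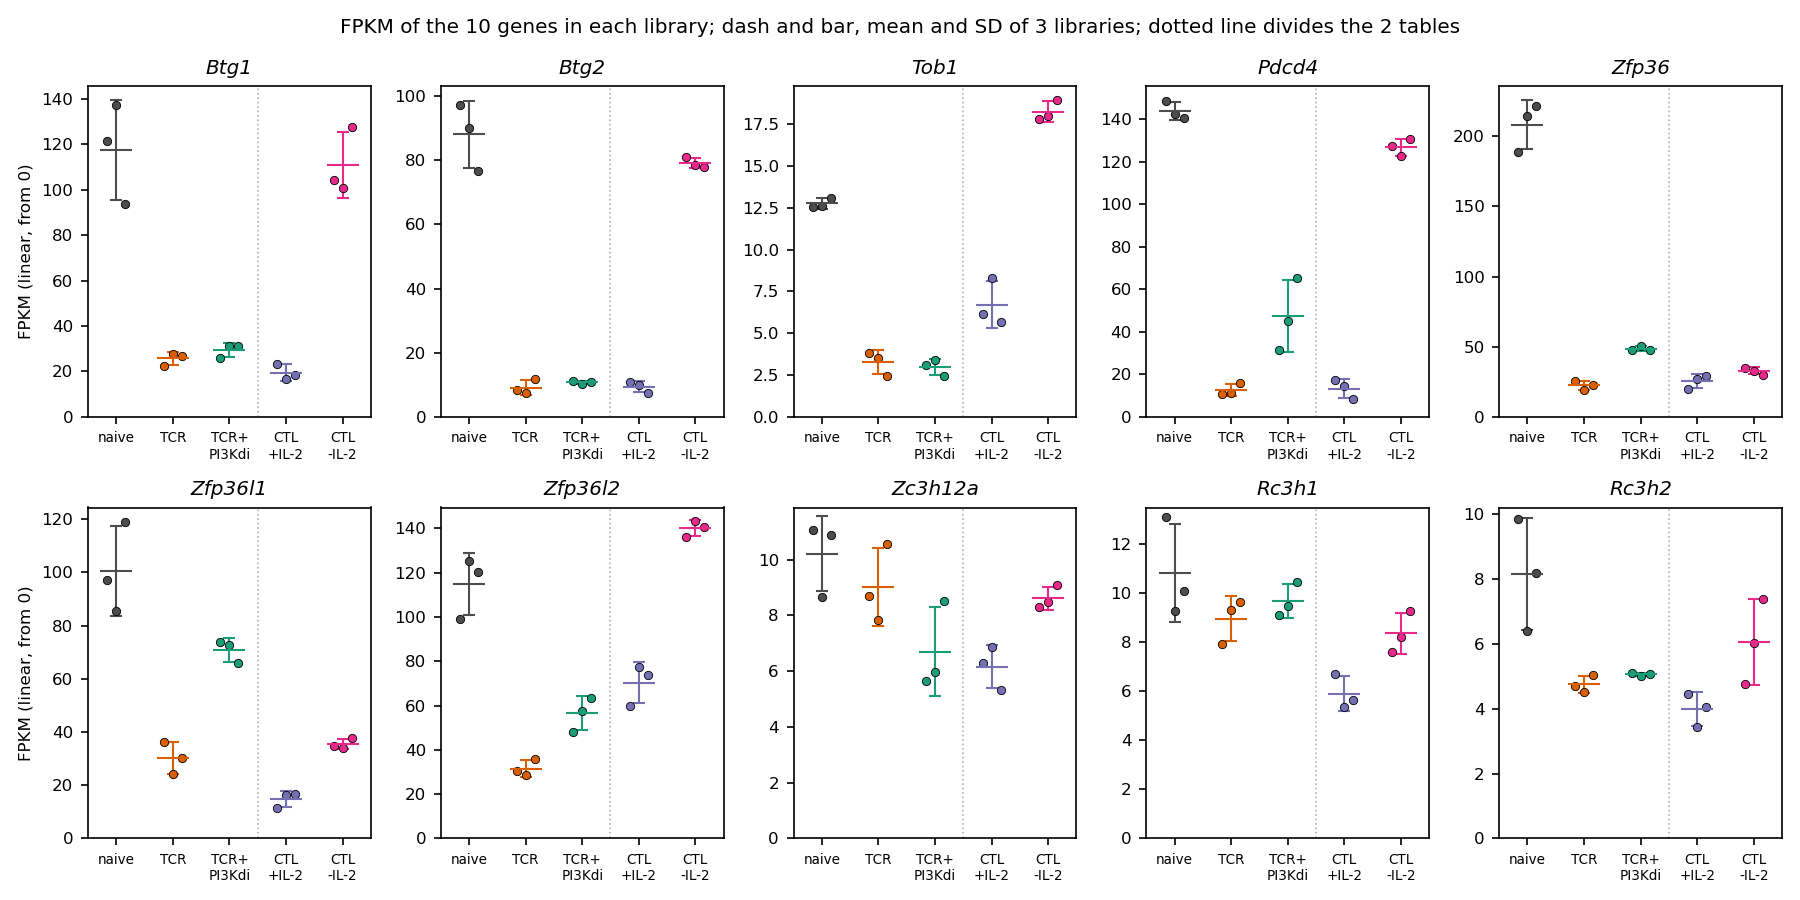
FPKM of the 10 genes in each library (vertical axis, linear from 0) by group (horizontal axis). Points are libraries, dashes and bars the mean and SD of 3, and the dotted line divides the tables. The naïve points of Btg1, Btg2, Tob1, Pdcd4, Zfp36, Zfp36l1 and Zfp36l2 lie above every TCR point, while those of Zc3h12a and Rc3h1 overlap them.

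Most of these mRNA were lower after 24 h of activation. The comparison asks how each mRNA differed between TCR cells and naïve cells taken directly from tissue. TCR cells were given peptide, IL-2, IL-12 and 24 h of culture together, so the parts of these cannot be told apart. The sort gates differed as well. A gene was called at an adjusted p under 0.05 (limma on log2(FPKM + 0.1), Benjamini-Hochberg over all genes of the table) with a fold change above 2 or below 0.5. By that rule 7 of the 10 fell and 0 rose, where 23.7% of all genes fell and 25.0% rose. At an adjusted p under 0.05 alone 8 of 10 were lower, against 39.8% of all genes. The median log2 fold change of the 10 was -1.91 and that of all genes 0.01.

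The antiproliferative BTG/TOB genes all fell. Btg1 measured 122, 137 and 93.6 FPKM in naïve replicates 1, 2 and 3, and 22.4, 27.8 and 26.9 FPKM in TCR libraries. Every TCR library was far below every naïve one, with a fitted log2 fold change of -2.18 (SE 0.14, adjusted p 6.6e-08). Btg2, a target of p53 and of immediate-early signals in many cells, went from 97.4, 90.2 and 76.7 to 8.28, 7.32 and 11.7 FPKM. That is a log2 fold change of -3.28 (SE 0.16, adjusted p 4.9e-09), and only 397 genes of the table had a lower one. Tob1 went from 12.5, 12.6 and 13.1 to 3.84, 3.54 and 2.44 FPKM. Its groups did not overlap either (log2 fold change -1.96, SE 0.18, adjusted p 1.2e-06). Summed over these 3 genes the level was 183 to 240 FPKM in naïve and 34.5 to 41.1 FPKM in TCR libraries. Btg2 made up 40.5% ± 2.52 of the sum in naïve and 23.8% ± 4.76 in TCR cells.

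Pdcd4 had the largest fall of the 10. Its level was 149, 142 and 141 FPKM in naïve and 10.6, 11.3 and 15.99 FPKM in TCR libraries, or 8.78% of the naïve mean. The log2 fold change was -3.52 (SE 0.22, adjusted p 5.2e-08), and 334 genes of the table had a lower one. Of 14 listed partners and regulators of PDCD4, 4 rose and 0 fell, beside the 25.0% and 23.7% of all genes that did, so the share that rose was near that of all genes. The largest changes were in Eif4ebp1, an eIF4E inhibitor controlled by mTORC1 (4.64 to 61.2 FPKM on average), the cap-binding protein gene Eif4e (23.0 to 90.7) and Eif4a1, which encodes the helicase that PDCD4 blocks (284 to 1032). In naïve cells there were 144 FPKM of Pdcd4 beside 284 of Eif4a1, and in TCR cells 12.6 beside 1032. These are mRNA levels, and what they mean for the proteins or for translation was not tested.

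The 3 ZFP36 genes fell to different extents. Zfp36, which encodes tristetraprolin, measured 189, 215 and 221 FPKM in naïve and 25.6, 19.2 and 22.4 FPKM in TCR libraries (log2 fold change -3.22, SE 0.11, adjusted p 3.5e-10). Zfp36l1 measured 97.2, 85.4 and 119, then 36.3, 24.2 and 30.1 FPKM (-1.74, SE 0.15, adjusted p 7.4e-07). Zfp36l2 measured 99.2, 125 and 120, then 30.2, 28.4 and 35.6 FPKM (-1.87, SE 0.13, adjusted p 1.0e-07). No TCR library reached a naïve one for any of the 3. Zfp36 fell to 10.7% of its naïve mean, Zfp36l2 to 27.3% and Zfp36l1 to 30.0%. Zfp36 made up 48.1% to 50.5% of the summed family FPKM in naïve libraries and 25.4% to 27.8% in TCR libraries, where Zfp36l1 and Zfp36l2 were the higher members.

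Zfp36 and Btg2 are also induced as immediate-early genes by handling in many cell types, and naïve cells are taken fresh from tissue. Of 13 listed immediate-early and handling genes, 4 rose on activation (Atf3, Nr4a1, Egr2 and Fosl2) and 4 fell (Fos, Hspa1b, Dusp1 and Jun), beside the same 25.0% and 23.7% of all genes. The naïve libraries list Atf3 at 0, and its TCR mean was 22.0 FPKM. Naïve replicate 2 stood apart in Fos, Dusp1 and Jun. Fos was at 170 FPKM there against 52.5 and 37.0 in replicates 1 and 3, Dusp1 at 33.1 against 10.7 and 13.2 FPKM, and Jun at 74.3 against 24.6 and 22.6 FPKM. Hspa1b was at 14.3, 13.8 and 1.66 FPKM in naïve replicates 1, 2 and 3. In replicate 2 Zfp36 (215 FPKM) and Btg2 (90.2 FPKM) lay between the other 2 naïve libraries. Without replicate 2 the log2 fold changes were -3.09 for Zfp36 and -3.12 for Btg2. Whether handling contributes to the naïve levels was not tested.

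Zc3h12a and Rc3h1 were not shown to change at the mRNA level, and Rc3h2 fell by less than 2-fold. Zc3h12a was at 11.1, 8.66 and 10.9 FPKM in naïve and 8.70, 7.82 and 10.6 FPKM in TCR libraries, and the groups overlapped. The fold was 0.88 with a 95% interval of 0.67 to 1.16 (adjusted p 0.37). Rc3h1 was at 13.1, 9.29 and 10.1, then 7.91, 9.31 and 9.64 FPKM, a fold of 0.83 (95% interval 0.67 to 1.04, adjusted p 0.11). Rc3h2 was at 9.87, 6.40 and 8.19, then 4.69, 4.53 and 5.03 FPKM. It passed the adjusted p alone with a log2 fold change of -0.75 (SE 0.15, adjusted p 7.5e-04) and its groups did not overlap.

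**Figure D2:**
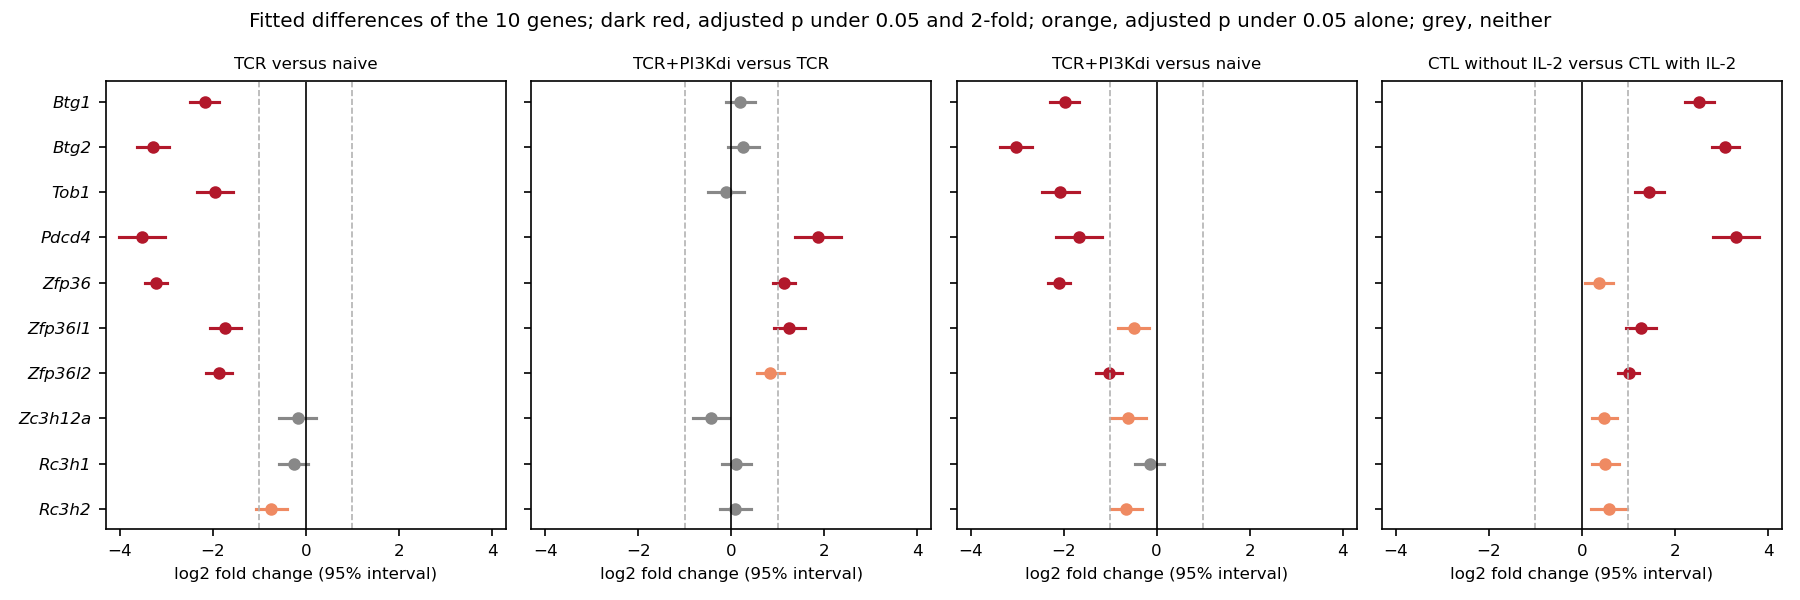
Fitted log2 fold changes (horizontal axis) with 95% intervals for the 10 genes (vertical axis) in the 4 comparisons; dashed lines mark 2-fold. Dark red points were called, orange points passed the adjusted p alone and grey points neither. In TCR versus naïve 7 genes are dark red on the left, and in CTL without versus with IL-2 all 10 points are right of 0.

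With PI3K p110δ inhibited, some of these mRNA were higher than after activation alone and others were not shown to differ. In TCR+PI3Kdi versus TCR cells 3 of 10 were called higher and 0 lower, where 3.04% of all genes were higher and 2.10% lower. Zfp36l2 passed the adjusted p alone, which makes 4 of 10 by that rule, against 9.35% of all genes in that direction. The median log2 fold change of the 10 was 0.23 and that of all genes -0.01. TCR cells served as the comparison here and also above, so the 2 sets of differences share libraries.

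Pdcd4 and the ZFP36 genes were the ones that differed. Pdcd4 was at 31.6, 45.1 and 65.3 FPKM in TCR+PI3Kdi replicates 1, 2 and 3. Each was above all TCR libraries and 2.98 to 4.08 times the TCR library of the same pool (log2 fold change 1.86, SE 0.22, adjusted p 2.7e-04). Only 67 genes of the table had a higher one. Zfp36 measured 47.7, 50.4 and 47.9 FPKM (1.13, SE 0.11, adjusted p 6.1e-05). Without replicate 2 its log2 fold change was 0.99, just under 2-fold, with an adjusted p of 0.0084. Zfp36l1 measured 73.9, 72.7 and 65.8 FPKM (1.24, SE 0.15, adjusted p 2.9e-04). Zfp36l2 measured 48.2, 57.7 and 63.5 FPKM (0.84, SE 0.13, adjusted p 0.0013), and without replicate 2 its log2 fold change was 0.75 with an adjusted p of 0.058. All 4 genes were higher in 3 of 3 pools, as were Btg1, Rc3h1 and Rc3h2 by smaller ratios (1.12 to 1.16, 1.02 to 1.15 and 1.01 to 1.11). The summed ZFP36 family was at 71.8 to 92.2 FPKM in TCR libraries and at 170 to 181 FPKM with PI3Kdi. The share of Zfp36 in it was 26.6% ± 1.20 without and 27.7% ± 0.563 with PI3Kdi, with overlapping ranges.

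The BTG/TOB genes were not shown to respond. Btg1 was at 26.1, 31.1 and 31.3 FPKM with PI3Kdi, a fold of 1.15 over TCR (95% interval 0.92 to 1.42, adjusted p 0.38). Btg2 was at 11.1, 10.3 and 10.7 FPKM, a fold of 1.20 (0.95 to 1.52, adjusted p 0.28); without replicate 3 its log2 fold change was 0.45 with an adjusted p of 0.049. Tob1 was at 3.12, 3.40 and 2.45 FPKM, a fold of 0.92 (0.70 to 1.22, adjusted p 0.71). These intervals leave out a 2-fold difference in either direction for each of the 3 genes.

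Among the stem-loop regulators, Zc3h12a was the only one of the 10 whose fitted interval lay below its TCR level. It was at 5.63, 5.96 and 8.52 FPKM with PI3Kdi, lower than TCR in 3 of 3 pools, with a fold of 0.74 (95% interval 0.56 to 0.97) and an adjusted p of 0.12. With the replicate number as a block the adjusted p was 0.0497. Rc3h1 (9.09, 9.47 and 10.4 FPKM, fold 1.08, adjusted p 0.64) and Rc3h2 (5.11, 5.01 and 5.06 FPKM, fold 1.06, adjusted p 0.73) were not distinguished from TCR cells. Zc3h12d, which encodes the related Regnase-4, was higher with PI3Kdi. It rose from 8.79 FPKM in naïve to 14.5 in TCR cells on the adjusted p alone (log2 fold change 0.71, adjusted p 9.5e-04) and to 31.8 FPKM with PI3Kdi (1.14, SE 0.15, adjusted p 4.6e-04). The other related genes in the table were N4bp1 (10.8, 4.90 and 7.89 FPKM in naïve, TCR and TCR+PI3Kdi cells), Tob2 (28.2, 34.3 and 32.1 FPKM) and Zc3h12b, which stayed under 1 FPKM. N4bp1 was called lower in TCR cells, a call lost under median scaling or with a pseudocount of 1, and was higher with PI3Kdi on the adjusted p alone (0.014).

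Set against naïve cells, TCR+PI3Kdi cells still had 6 of the 10 called lower and 0 higher, where 21.3% of all genes were lower and 23.6% higher. At an adjusted p alone 9 of 10 were lower, against 39.0% of all genes. Btg2 stood at 12.2% of its naïve mean (log2 fold change -3.02), Zfp36 at 23.4% (-2.09), Tob1 at 23.4% (-2.07), Btg1 at 25.1% (-1.98), Pdcd4 at 32.9% (-1.66) and Zfp36l2 at 49.1% (-1.03). Zfp36l2 lay close to the 2-fold limit, and without replicate 2 its log2 fold change was -0.98. Zfp36l1 was nearest to the naïve level of the genes that had fallen. It reached 70.4% of the naïve mean and lost the 2-fold call (-0.49, SE 0.15, adjusted p 0.011), and without replicate 3 its adjusted p was 0.14. Zc3h12a was lower in this comparison at -0.62 (SE 0.18, adjusted p 0.0077), and without replicate 1 at -0.44 with an adjusted p of 0.11. Rc3h2 was at -0.66 (SE 0.15, adjusted p 0.0020), and Rc3h1 at -0.15 (SE 0.14, adjusted p 0.35).

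The order of the levels changed as well. In TCR cells Zfp36l2 (31.4 FPKM), Zfp36l1 (30.2), Btg1 (25.7) and Zfp36 (22.4) overlapped in turn, and Pdcd4 came below at 12.6 FPKM. With PI3Kdi, Zfp36l1 was the highest at 70.8 ± 4.40 FPKM and did not overlap the next, Zfp36l2 at 56.5 ± 7.73 FPKM. Zfp36 (48.7 ± 1.52) and Pdcd4 (47.3 ± 16.9 FPKM) followed and overlapped Zfp36l2 and each other, and Btg1 lay below them at 29.5 ± 2.97 FPKM. Tob1 was the lowest of the 10 in both activated groups.

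**Figure D3:**
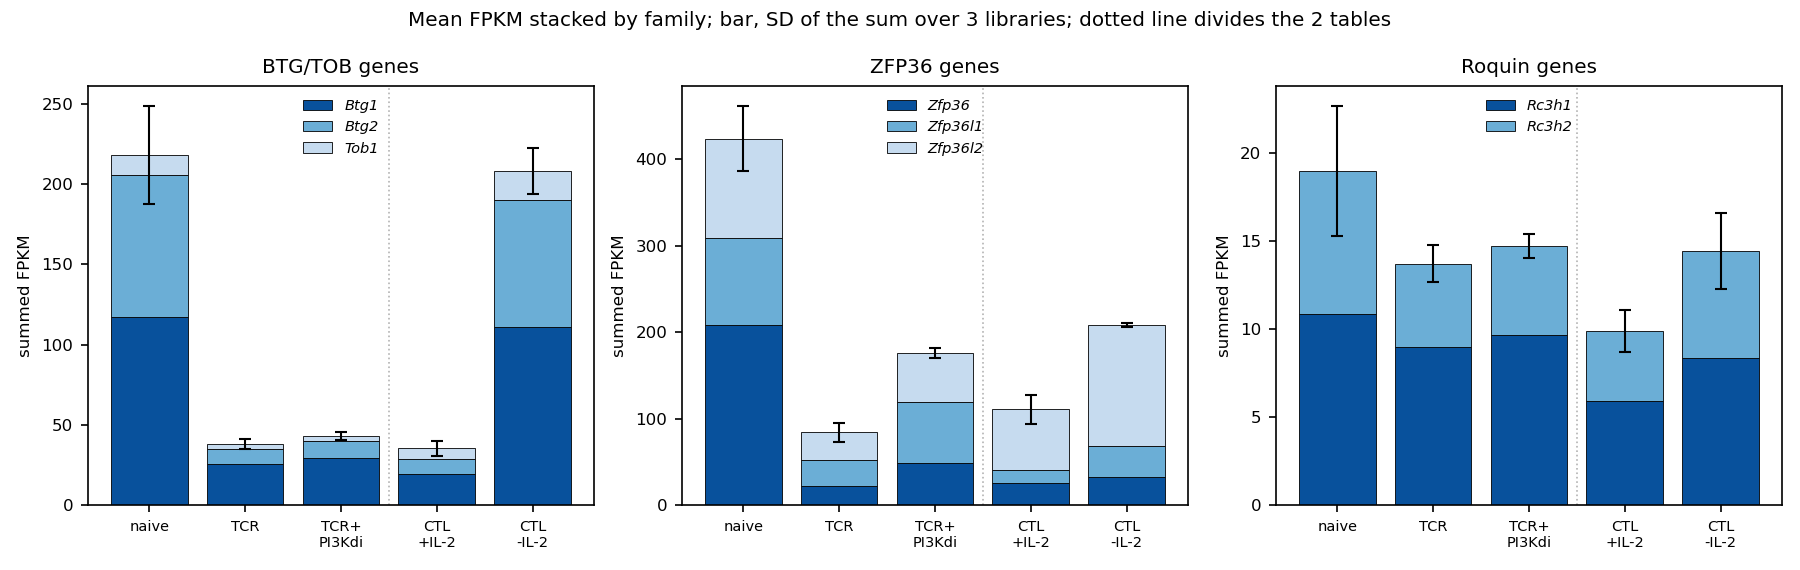
Mean FPKM of the BTG/TOB, ZFP36 and Roquin genes stacked by group (vertical axes, linear from 0), with the SD of the sum over 3 libraries; the dotted line divides the tables. The BTG/TOB sum is 38.1 in TCR and 43.2 FPKM in TCR+PI3Kdi cells, while the ZFP36 sum is 84.0 and 176 FPKM.

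Removal of IL-2 from CTL raised these mRNA, Pdcd4 and the BTG genes most. The comparison asks what 24 h without the cytokine did to differentiated effector cells. Of the 10, 6 were called higher and 0 lower, where 14.3% of all genes were higher and 13.9% lower. At an adjusted p alone 10 of 10 were higher, against 35.2% of all genes. The median log2 fold change of the 10 was 1.14 and that of all genes 0.00. All 10 had every library without IL-2 above every library with it, as did 37.6% of all genes.

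Pdcd4, the translation inhibitor, was at 17.1, 14.3 and 8.32 FPKM in CTL with IL-2 and at 127, 123 and 131 FPKM without it (log2 fold change 3.31, SE 0.22, adjusted p 1.3e-06). Btg2 was at 10.9, 9.83 and 7.45, then 81.0, 78.6 and 78.0 FPKM (3.08, SE 0.13, adjusted p 2.1e-07). Btg1 was at 23.5, 16.5 and 18.3, then 105, 101 and 128 FPKM (2.52, SE 0.14, adjusted p 5.9e-07). Only 83, 116 and 229 genes of the table had larger rises than these. Tob1 was at 6.12, 8.30 and 5.67, then 17.8, 18.0 and 19.0 FPKM (1.45, SE 0.14, adjusted p 1.3e-05). The BTG/TOB sum was 31.4 to 40.6 FPKM with IL-2 and 198 to 225 FPKM without.

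The ZFP36 genes rose less, and Zfp36 least. Zfp36l1 was at 11.4, 16.4 and 16.6 FPKM with IL-2 and 34.7, 33.9 and 37.7 FPKM without (log2 fold change 1.27, SE 0.14, adjusted p 3.2e-05). Zfp36l2 was already high at 59.7, 77.4 and 74.0 FPKM, and reached 136, 143 and 141 FPKM (1.00, SE 0.10, adjusted p 1.8e-05). It sat on the 2-fold limit, and without replicate 1 its log2 fold change was 0.91. Zfp36 was at 20.2, 27.2 and 29.2, then 35.1, 33.0 and 30.1 FPKM (0.37, SE 0.14, adjusted p 0.032). Its rise rested on single replicates, since without replicate 1 it was 0.16 with an adjusted p of 0.17, and without replicate 2 it was 0.42 with an adjusted p of 0.093. Zfp36l2 held 61.8% to 65.4% of the family sum with IL-2 and 66.2% to 68.2% without.

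Zc3h12a, Rc3h1 and Rc3h2 rose on the adjusted p alone. Zc3h12a went from 6.30, 6.86 and 5.32 to 8.29, 8.47 and 9.08 FPKM (log2 fold change 0.48, SE 0.12, adjusted p 0.0053). Rc3h1 went from 6.70, 5.35 and 5.64 to 7.61, 8.23 and 9.27 FPKM (0.50, SE 0.13, adjusted p 0.0058), and Rc3h2 from 4.47, 3.43 and 4.04 to 4.75, 6.02 and 7.40 FPKM (0.58, SE 0.18, adjusted p 0.014). Without replicate 2 the adjusted p was 0.065 for Rc3h1 and 0.12 for Rc3h2, and without replicate 3 it was 0.068 for Rc3h2. Of the related genes, Zc3h12d rose from 2.43 to 9.79 FPKM (1.98, SE 0.16, adjusted p 5.4e-06), N4bp1 was lower on the adjusted p alone (14.4 and 10.8 FPKM, adjusted p 0.011), Tob2 was at 14.1 and 13.4 FPKM, and Zc3h12c stayed under 1 FPKM.

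In these CTL 7 of 11 immediate-early and handling genes were called lower and 0 higher without IL-2, beside 13.9% and 14.3% of all genes. The largest were Fos (2.53 to 0.16 FPKM), Egr1 (15.99 to 2.25) and Dusp1 (14.2 to 2.65). Markers of naïve T cells rose with the 10 genes. All 5 were called, with sums of 131 to 163 FPKM with IL-2 and 853 to 937 FPKM without. Of 6 markers of activated or effector cells 4 were called lower without IL-2 (Gzmb, Prf1, Il2ra and Tfrc), while Mki67 was at 98.1 and 88.5 FPKM and Cd44 at 45.6 and 59.7 FPKM with and without it. Their sum, mostly Gzmb, was 9864 to 12769 FPKM with IL-2 and 525 to 805 FPKM without. In the first table the naïve T cell markers summed to 1223 to 1374 FPKM in naïve, 208 to 290 in TCR and 399 to 550 FPKM in TCR+PI3Kdi libraries.

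**Figure D4:**
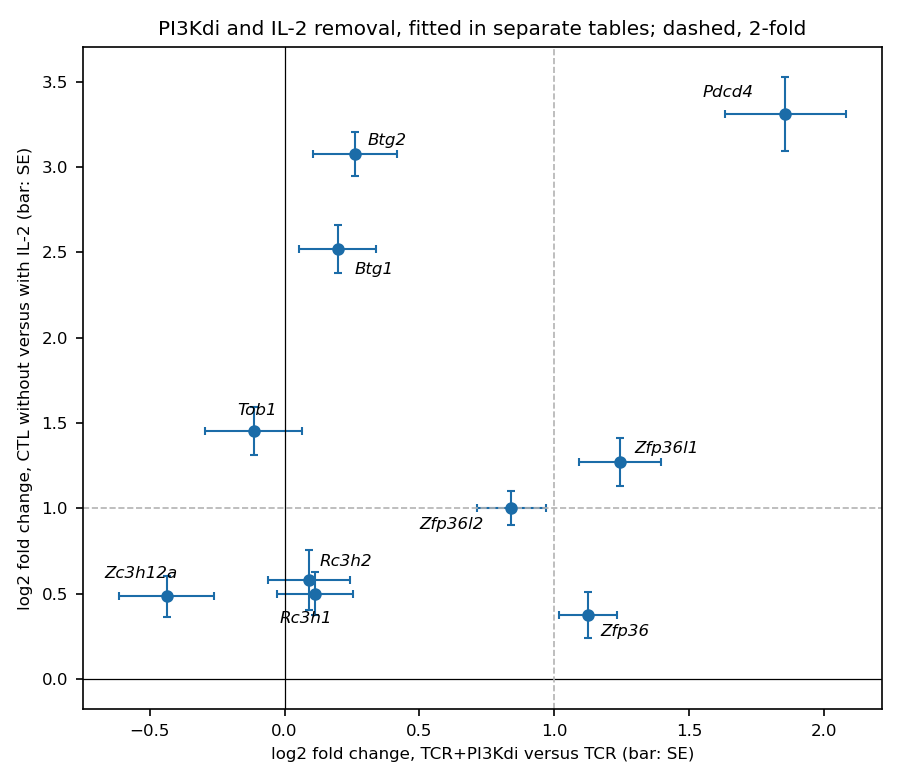
Log2 fold changes of the 10 genes with PI3Kdi in activated cells (horizontal axis) and on removal of IL-2 from CTL (vertical axis), with SE bars; dashed lines mark 2-fold. Pdcd4 and Zfp36l1 lie past 2-fold on both axes, Btg1, Btg2, Tob1 and, just at the limit, Zfp36l2 on the vertical axis alone, and Zfp36 on the horizontal axis alone.

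Side by side, the log2 fold changes with PI3Kdi and without IL-2 were 1.86 and 3.31 for Pdcd4, 0.26 and 3.08 for Btg2, 0.20 and 2.52 for Btg1, and 1.13 and 0.37 for Zfp36. The tables hold different cells and were fitted separately, so the difference between the 2 treatments was not tested. Read against the naïve mean of the other table, CTL without IL-2 had 143% of Tob1, 122% of Zfp36l2, 94.5% of Btg1, 89.9% of Btg2 and 88.1% of Pdcd4. Zfp36l1 was at 35.2% and Zfp36 at 15.7% of that level. These percentages compare tables that may have been normalised separately and are given with no test.

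The machinery that the repressors act through is listed beside them. Counts on these lists stand beside the shares of all genes called higher and lower, which were 25.0% and 23.7% on activation, 3.04% and 2.10% with PI3Kdi against TCR, and 14.3% and 13.9% without IL-2. Of 18 measured genes of CCR4-NOT, PAN2-PAN3 and poly(A)-binding proteins, 2 rose and 3 fell on activation, both smaller shares than among all genes. The largest were Pabpc4, a poly(A)-binding protein gene (24.4 to 171 FPKM), Rqcd1, which encodes the CNOT9 subunit (21.6 to 69.7), and Paip2, an inhibitor of poly(A)-binding protein, which fell (126 to 53.2 FPKM). PI3Kdi against TCR called 0 of 18. Removal of IL-2 raised 3 of 18 and lowered 1, with rises in the deadenylase subunit gene Cnot6l (20.0 to 53.5 FPKM), Paip2 (44.4 to 116) and Pan2 (7.70 to 18.3).

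Genes of the exosome rose on activation. Of 16 exosome and SKI genes 10 rose and 0 fell (median log2 fold change 1.13), led by the nuclease gene Dis3 (12.2 to 72.5 FPKM), Exosc2 (28.6 to 107) and Exosc9 (16.3 to 52.7). Of 20 decapping and 5′ to 3′ decay genes 5 rose and 2 fell, with a share of rises like that of all genes, led by Lsm2 (17.2 to 78.5 FPKM), Eif4enif1, which encodes the eIF4E transporter 4E-T (26.4 to 90.3), and Lsm3 (45.9 to 144). The 2 that fell were Xrn1, the 5′ to 3′ exonuclease gene (15.9 to 6.90 FPKM), and Dcp1b, which encodes a decapping cofactor (8.94 to 4.21 FPKM). PI3Kdi against TCR called 0 genes of either list. Without IL-2, 4 of 16 exosome and SKI genes fell and 0 rose, among them Dis3 (34.0 to 7.95 FPKM), Exosc6 (23.9 to 6.21) and Exosc1 (28.2 to 10.7). Of the 20 decapping genes 3 fell and 1 rose, shares near or below those of all genes, with Lsm2 (44.7 to 14.5 FPKM), Lsm3 (94.8 to 34.0) and Lsm7 (42.9 to 18.4) the largest.

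Of 15 other mRNA-binding proteins 6 rose and 2 fell on activation. Igf2bp3 rose (0.28 to 2.18 FPKM), and Arid5b (7.21 to 1.59) and Zfp871 (18.0 to 6.19) fell. Arid5b was the 1 gene of this list called with PI3Kdi against TCR. It measured 7.04, 7.18 and 6.57 FPKM with PI3Kdi against 2.12, 1.36 and 1.28 FPKM in TCR cells (log2 fold change 2.09, SE 0.21, adjusted p 8.3e-05). Without IL-2, 1 gene of the list rose and 3 fell, among them G3bp1 (188 to 76.1 FPKM), Hnrnpd (58.6 to 26.0) and Elavl1, which encodes the AU-rich element binder HuR (24.2 to 11.1). Of the PDCD4 partners, Eif4ebp1 was the 1 called with PI3Kdi against TCR (61.2 to 25.4 FPKM, lower), and this call was lost without replicate 1 or 2. In CTL 4 of 14 fell and 0 rose without IL-2, with Eif4e (55.1 to 15.1 FPKM), Eif4a1 (702 to 224) and Eif4g1 (224 to 83.2) the largest.

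Reported target mRNA of ZFP36 proteins, Regnase-1 or Roquin went both ways. The list holds Zc3h12a itself, which is also 1 of the 10. On activation 12 of 16 measured targets rose and 2 fell, with a median log2 fold change of 3.47. The largest rises that were measured above 0 in naïve cells were those of Ifng (0.0867 to 2179 FPKM), the inhibitory receptor Ctla4 (0.307 to 120) and the transcription factor Irf4 (1.47 to 289). With PI3Kdi against TCR 7 of 16 fell and 1 rose. Ifng went from 1950, 2290 and 2299 to 30.9, 27.5 and 38.8 FPKM, Il3 from a mean of 20.5 to 0.147 FPKM and Tnfrsf9, which encodes 4-1BB, from 159 to 23.1 FPKM. The 1 that rose was Icos (73.5, 64.4 and 57.8, then 131, 155 and 211 FPKM). Ctla4 varied widely, at 212, 103 and 45.2, then 149, 134 and 83.9 FPKM (log2 fold change 0.26, adjusted p 0.79). It was lower with PI3Kdi in replicate 1 and higher in replicates 2 and 3. Without IL-2 6 of 15 fell and 1 rose, with Tnfrsf9 (213 to 5.52 FPKM), Ifng (21.3 to 0.763) and Tnf (52.5 to 5.06) the largest falls and Ctla4 (22.5 to 130 FPKM) the rise. Transcription and decay of these mRNA are not separated by FPKM.

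TCR+PI3Kdi cells were also set against naïve cells, where 23.6% of all genes were higher and 21.3% lower. The exosome and SKI list had 9 higher and 0 lower, the decapping list 6 and 1, the CCR4-NOT list 2 and 2, the other mRNA-binding proteins 4 and 1, the PDCD4 partners 4 and 0, the target mRNA 10 and 1, and the immediate-early list 4 and 4.

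**Figure D5:**
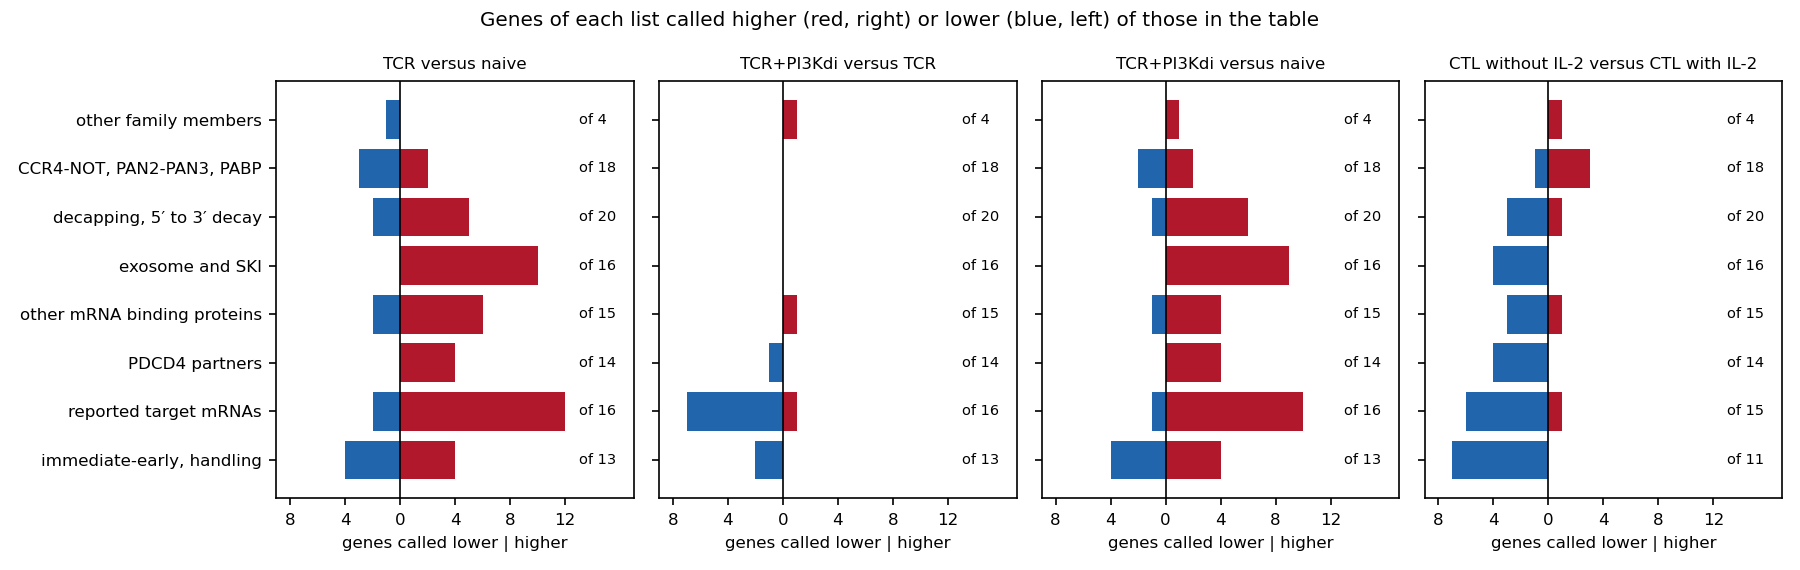
Number of genes called higher (red, right) and lower (blue, left) on each of 8 lists (vertical axis) in the 4 comparisons, with the number in the table at the right of each row. The exosome and SKI row has 10 genes higher in TCR versus naïve, and no gene called in TCR+PI3Kdi versus TCR.

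Over the 9 libraries of the first table, the mRNA whose log2 levels followed Pdcd4 most closely were Sh3bp5, Slfn1 and Arhgap26, with Pearson correlations of 0.998, 0.997 and 0.996 among 10072 genes of at least 1 FPKM. Of the 10, Zfp36l2 was nearest to Pdcd4, at 0.987 and rank 16, and Zfp36 was at 0.956, whereas Btg2 was at 0.871 and rank 1583. Btg2 was followed most closely by Cmpk2, Oas1c and Lrig2 (0.998, 0.997 and 0.997), with Btg1 at 0.984. Over the 6 CTL libraries Fcgr3, Map1lc3b and Kctd21 were nearest to Pdcd4 (1.00, 1.00 and 0.999), and Btg2 was at 0.997. These are descriptions over a few libraries in which the groups alone give high values, so they carry no p.

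Positions on GRCm38 (GENCODE M21) are given for reading neighbours. Btg1 lies at chr10:96617006-96622809, Btg2 at chr1:134075170-134079120, Tob1 at chr11:94211454-94215495, Pdcd4 at chr19:53892231-53929860, Zfp36 at chr7:28376784-28380253, Zfp36l1 at chr12:80107754-80113013, Zfp36l2 at chr17:84183931-84187947, Zc3h12a at chr4:125118423-125127840, Rc3h1 at chr1:160906418-160974978 and Rc3h2 at chr2:37370069-37422903. Another annotated gene overlaps 5 of the 10. For Zfp36, Zfp36l1 and Zfp36l2 it is a non-coding gene on the opposite strand. According to the methods, libraries were prepared with a stranded mRNA kit, though the article does not describe the CTL libraries. The sources do not say whether reads were counted by strand, so reads of these genes could include some from the opposite strand. Rc3h1 is overlapped on its own strand by Gm37052, Gm37809 and Gm37653, and Rc3h2 by the snoRNA gene Snord90. What these overlaps add to the reads was not tested.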

How the data were processed

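RNA sequencing was taken from 2 tables of FPKM that the authors deposited. According to the methods, STAR 2.5.2b (mm10) aligned the reads and Subread 1.5.1 counted them on RefSeq genes. The authors filtered genes with filterByExpr, applied TMM scaling and computed FPKM in edgeR, taking gene length as the union of exons. The same steps were assumed for the CTL libraries, which the article does not describe. Values carry 2 decimals, and 1039 blank cells in 493 genes of the first table were read as 0.

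The 9 and the 6 libraries were fitted separately in R 4.3.3 with limma 3.58.1 (intensity trend) on log2(FPKM + 0.1), a scale that understates changes of low genes. P-values were adjusted by Benjamini-Hochberg over all genes of a table. The fit was tested on simulated data, and figures used Python 3.11.15 with matplotlib 3.10.9. Libraries were grouped by title, because the treatment labels of CTL replicates 2 and 3 name other interleukins. Shared pools pair the first table by replicate number. Deviations of same-numbered libraries correlated at 0.20 to 0.51 between TCR and TCR+PI3Kdi, at -0.18 to 0.23 between naïve and activated groups, and at 0.12 to 0.26 in CTL. No source gives the CTL cultures, so p-values there measure the spread between these libraries.

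The 10 genes, the lists and the motifs were chosen with earlier results of these data known. All 10 genes and every measured related gene are named, and of each other list at most the 3 largest called changes per comparison. Genes outside this rule (Dusp1, Jun, Nr4a1, Egr2, Fosl2, Xrn1, Dcp1b, Icos, marker genes, and Ctla4 with PI3Kdi or without IL-2) were named after their values were seen. Alternatives changed the pseudocount, a filter on low values, the scaling, the variance trend, the fold limit, the libraries fitted, the replicate block and each replicate.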

Additional observations from a re-analysis of the deposited data

How the results depend on the processing

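Over 390 alternative values of the 10 genes in the 4 comparisons, 384 kept their direction and their side of the threshold, 5 kept the direction and fell just under 2-fold, and 1 changed sign. The 1 was Rc3h1 in TCR+PI3Kdi versus naïve, which was not called in any setting and ranged from -0.25 to 0.038 when 1 replicate was left out, the latter without replicate 1. Those under 2-fold were Zfp36 with PI3Kdi, and Zfp36l2 against naïve cells and in CTL, at 0.99, -0.98 and 0.91 without 1 replicate, and Zfp36l2 at -0.93 with median scaling and at 0.99 with a pseudocount of 1. Of the counts, the 6 called in CTL became 10 with no limit on the fold change. Leaving out each replicate in turn gave 7 called in TCR versus naïve, 2 to 3 in TCR+PI3Kdi versus TCR, 5 to 6 in TCR+PI3Kdi versus naïve and 5 to 6 in CTL. With the replicate block the counts were 7, 3, 6 and 6, and Zc3h12a with PI3Kdi was the 1 gene that passed the adjusted p there (0.0497) and not without it. At an adjusted p alone, leaving out replicates gave 8, 3 to 5, 8 to 9 and 7 to 9 genes. Scaling each library to its median moved the median log2 fold change of all genes to 0.12 in TCR versus naïve and that of the 10 to -1.79. On the lists of other genes no count above 2 moved by more than 1.5 times in either direction, while single calls were gained or lost. Only 3 libraries a group and rounded FPKM limit the precision of Tob1, Zc3h12a, Rc3h1 and Rc3h2, and FPKM cannot show protein levels.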
